A study of Mus musculus with 9 samples.

Results

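The guanylate binding protein genes are a family of interferon-inducible genes, and 10 of the 2889 genes in the deposited sample table belong to it by symbol (Gbp followed by a digit): Gbp2, Gbp3, Gbp4, Gbp5, Gbp6, Gbp7, Gbp8, Gbp9, Gbp10 and Gbp11. All 10 passed the filter on low values, a mean of at least 1 normalized count over all samples, which left 2868 genes for testing. The cells were CD3+ T cells taken by negative selection from the spleens of 3 wild-type C57BL/6 mice and kept for 4 h in 1 of 3 media: medium conditioned by adipocytes (3 samples), medium conditioned by stromal cells (3 samples) or unconditioned medium (3 samples). Each mouse gave 1 sample to each medium. The labels used here name neither the source of the adipocytes and stromal cells nor the age of the mice.

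Guanylate binding proteins are large GTPases of the dynamin superfamily that interferon gamma induces strongly, in part through the transcription factor IRF1. They assemble on vacuoles that hold pathogens and on the surface of Gram-negative bacteria, and they help to expose microbial ligands to the caspase-11 and AIM2 inflammasomes. T cells make interferon gamma themselves and also respond to it, so these transcripts are commonly read as a record of interferon exposure.

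The family was listed because of its response to stromal medium. All 10 members are in the authors' deposited table of genes changed in stromal against unconditioned medium, which was tested for a change beyond 1.5-fold, and 0 are in the authors' deposited table for adipocyte medium. The authors' deposited cluster 4, which holds 132 of the 2889 genes, includes all 10. The members were thus selected on their values in stromal against unconditioned medium, and these values are given below as a description without a test. Adipocyte against unconditioned medium did not choose the members and was tested, but it reuses the unconditioned samples on which they were chosen. Members chosen in part for low unconditioned values can lie higher in it for that reason, so its p-values are not fully independent of the choice. Adipocyte against stromal medium rests on the stromal samples on which the members were chosen, so its values for the members are likewise a description without a test. The 3 comparisons share samples with each other in pairs.

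Reads on the listed genes ran from 6522742 to 13758643 per sample, and no member had fewer than 144 reads in any sample. Replicates of each medium differed by more than counting noise, the chi-square divided by its degrees of freedom being 34.9 to 96.7 for pairs of adipocyte, 30.1 to 90.5 for pairs of stromal and 10.2 to 17.1 for pairs of unconditioned samples. Of 18 T cell markers 5 are in the sample table (Cd3e, Cd3g, Cd8a, Cd8b1 and Bcl11b), and their sum was 42462 to 44070 normalized counts with adipocyte, 88751 to 91890 with stromal and 103410 to 115370 with unconditioned medium. B cell markers, 6 of 20 in the table, summed to 486 to 545, 1488 to 2665 and 2004 to 2665 normalized counts in adipocyte, stromal and unconditioned medium. Myeloid markers, 16 of 32, summed to 5656 to 6919, 16751 to 21682 and 15981 to 19214 in the same order. Natural killer markers, 6 of 15, summed to 7540.2 to 8919, 8146 to 9418 and 14082 to 16097, and neutrophil markers, 7 of 14, to 311 to 1027, 1861 to 3315 and 1903 to 2794. The authors' adipocyte table holds all the T cell, B cell and neutrophil markers summed, 15 of 16 myeloid and 5 of 6 natural killer markers. A change of these sums in adipocyte medium was thus largely fixed by that selection. By the test given below, 14 myeloid, 4 natural killer and 6 neutrophil markers were lower in adipocyte against unconditioned medium. In each of these lists 1 was higher. Of all tested genes 63.4% were lower and 33.8% higher. In bulk RNA, fewer cells of a type and less of its marker RNA per cell cannot be told apart, and the part of other cell types in the results below was not tested.

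The 10 genes lie in 2 clusters. In the GENCODE M21 annotation of GRCm38, Gbp5 (ENSMUSG00000105504, chr3:142493978-142522344), Gbp7 (ENSMUSG00000040253, chr3:142530342-142550149), Gbp3 (ENSMUSG00000028268, chr3:142560026-142573209) and Gbp2 (ENSMUSG00000028270, chr3:142620602-142638008) stand on the plus strand of chromosome 3. On the minus strand of chromosome 5 are Gbp8 (ENSMUSG00000034438, chr5:105014150-105139540), Gbp9 (ENSMUSG00000029298, chr5:105077630-105139539), Gbp4 (ENSMUSG00000079363, chr5:105115767-105139586), Gbp10 (ENSMUSG00000105096, chr5:105215699-105239533), Gbp6 (ENSMUSG00000104713, chr5:105270702-105293698) and Gbp11 (ENSMUSG00000092021, chr5:105323042-105346472). Gbp11 is annotated as a polymorphic pseudogene, and the other 9 are annotated as protein coding. The chromosome 5 members are close copies of each other, with 90.0% to 98.4% identity between their coding sequences. On chromosome 3 the closest pairs are Gbp3 with Gbp7 at 79.5% and Gbp2 with Gbp5 at 71.2%.

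That likeness limits how reads could be assigned to single members. Gbp6 and Gbp10 are 98.4% identical over their coding bases, and both share exons with a further annotated gene, Gm43302, over 1726 exonic bases of Gbp6 and 1792 of Gbp10. Only 29.3% of the 50-base words in Gbp6 transcripts, and 15.9% of those in Gbp10 transcripts, occur in no other annotated gene. The share of such words was 80.8% to 98.6% in the other 8 members. Values of Gbp6 and Gbp10 are therefore uncertain as values of 1 gene. Gbp4, Gbp8 and Gbp9 share a first exon of about 60 bases, and Gbp7 shares 637 exonic bases with the processed pseudogene Gm43802. The stretch of coding sequence around the P-loop, the segment that holds the phosphates of GTP, shows both likeness and difference. In it Gbp6 and Gbp11 have the same 8 P-loop codons, while Gbp10 differs from Gbp6 within them. The stretch is given for Gbp2 of chromosome 3 and for 3 neighbours of chromosome 5 in which the adipocyte result below lies. It was read from GENCODE M21 coding sequences on GRCm38, with the 8 P-loop codons in capitals.
Gbp2: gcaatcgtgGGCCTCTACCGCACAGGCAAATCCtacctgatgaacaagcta
Gbp6: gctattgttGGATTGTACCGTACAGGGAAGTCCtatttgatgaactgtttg
Gbp10: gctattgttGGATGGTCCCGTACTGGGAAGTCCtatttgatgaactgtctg
Gbp11: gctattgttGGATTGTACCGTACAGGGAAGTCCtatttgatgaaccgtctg

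Promoter sequence was available only for the 4 members of chromosome 3. It was searched for 2 interferon motifs in the 250 bases before each RefSeq start site (GRCm38.p6). The interferon-stimulated response element, bound by factors of the IRF family, was searched on both strands as GAAA, 2 bases of any kind and GAAA. The gamma-activated site, a response motif of interferon gamma signalling, was searched as TTCNNNGAA, which reads the same on both strands. All 4 genes held the response element, against 3.46% of the 27025 genes in the promoter table (936 genes) and 4.03% of the 2330 genes of the sample table that could be matched (94 genes). The gamma-activated site was in 2 of the 4, Gbp5 and Gbp7, against 8.13% of all genes in the promoter table. A match describes letters in the window, not a site that was shown to be used. The windows lie on the plus strand at chr3:142620413-142620662 (Gbp2), chr3:142496684-142496933 (Gbp5), chr3:142530086-142530335 (Gbp7) and chr3:142559794-142560043 (the first of 2 starts of Gbp3), with the response element in capitals.
Gbp2: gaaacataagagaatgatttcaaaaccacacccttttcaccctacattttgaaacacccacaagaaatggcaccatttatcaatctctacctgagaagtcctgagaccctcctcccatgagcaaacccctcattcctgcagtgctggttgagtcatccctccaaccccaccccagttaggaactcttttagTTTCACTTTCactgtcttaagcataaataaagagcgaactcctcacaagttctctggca
Gbp5: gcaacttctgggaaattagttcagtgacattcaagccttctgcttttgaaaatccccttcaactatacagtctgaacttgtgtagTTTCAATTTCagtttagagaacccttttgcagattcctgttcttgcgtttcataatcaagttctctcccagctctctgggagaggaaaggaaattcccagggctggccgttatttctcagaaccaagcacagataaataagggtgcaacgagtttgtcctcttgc
Gbp7: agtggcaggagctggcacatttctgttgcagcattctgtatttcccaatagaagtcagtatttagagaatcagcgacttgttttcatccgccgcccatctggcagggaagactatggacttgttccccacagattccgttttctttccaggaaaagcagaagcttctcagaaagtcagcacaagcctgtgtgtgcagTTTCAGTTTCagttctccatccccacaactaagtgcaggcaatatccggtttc
Gbp3: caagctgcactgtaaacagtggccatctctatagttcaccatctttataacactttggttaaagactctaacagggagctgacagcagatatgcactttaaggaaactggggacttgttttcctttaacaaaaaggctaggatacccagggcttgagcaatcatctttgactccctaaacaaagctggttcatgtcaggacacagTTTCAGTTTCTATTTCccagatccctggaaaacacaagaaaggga

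Counted from its first base to the start site, the response element began 59 bases upstream in Gbp2, 165 in Gbp5 and 53 in Gbp7. Gbp3 held 2 overlapping matches at 45 and 39 bases. The gamma-activated sites began 245 and 52 bases upstream in Gbp5 and 106 and 87 bases upstream in Gbp7, and overlapped none of the response elements. The window of the second Gbp3 start held neither motif.

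All 10 members had their highest levels in stromal medium. Summed over the 10 genes, they took 0.482%, 0.651% and 0.281% of all normalized counts on listed genes in adipocyte samples of mice 1, 2 and 3. The share was 3.22%, 1.66% and 2.24% in stromal samples and 0.471%, 0.424% and 0.384% in unconditioned samples. The stromal samples lay above all 6 others, while the adipocyte samples lay on both sides of the unconditioned ones.

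**Figure D1:**
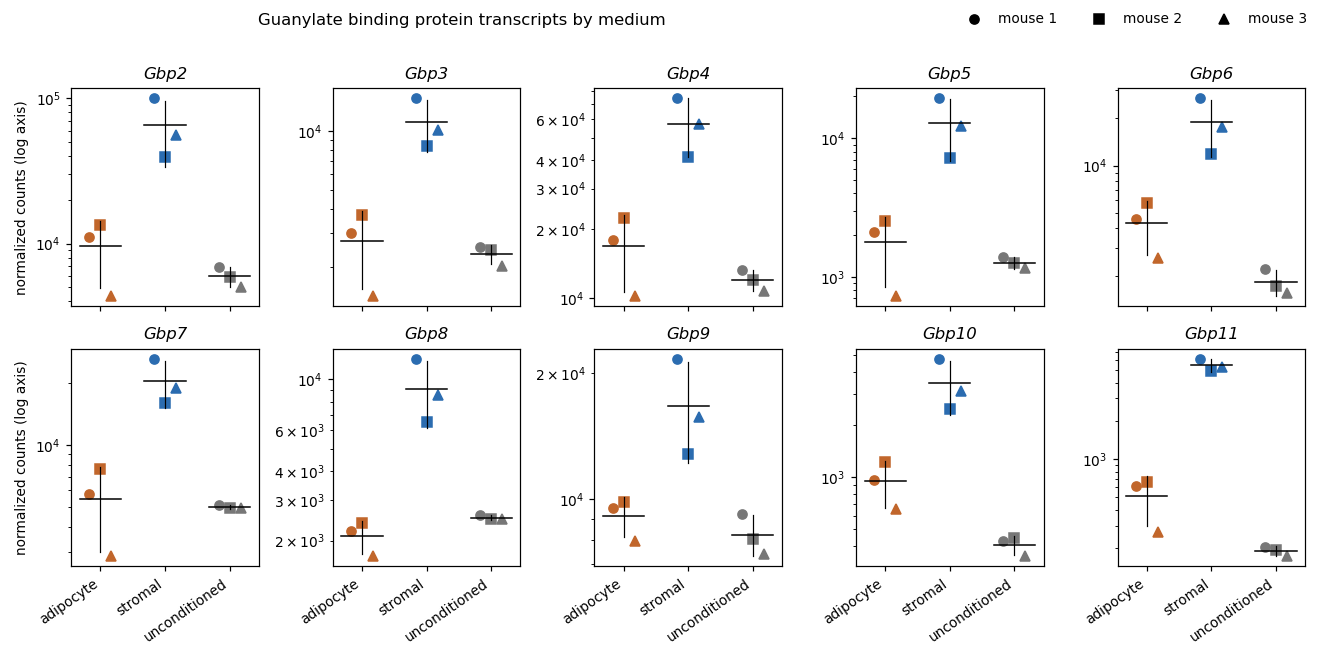
Normalized counts of each of the 10 guanylate binding protein genes (log axis, 1 panel a gene) in T cells after 4 h in adipocyte, stromal or unconditioned medium. Points are single samples with the symbol giving the mouse, horizontal lines are means and vertical lines are SDs (n = 3). In all 10 panels the 3 stromal points lie above the other 6, the adipocyte sample of mouse 3 is the lowest and that of mouse 2 the highest of its group, and the stromal sample of mouse 1 is the highest of its group.

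Set per kilobase of coding transcript, so that genes can be compared, Gbp2 and Gbp4 were the most abundant members in every medium. Gbp2 held 22.5% ± 4.0, Gbp4 22.7% ± 0.54 and Gbp7 13.0% ± 1.2 of the family's per-kilobase total in adipocyte medium (SD, n = 3), with Gbp2 and Gbp4 not apart beyond their spread. In stromal medium Gbp2 alone held 34.6% ± 3.7, ahead of Gbp4 at 17.7% ± 1.5 and Gbp7 at 11.5% ± 1.4. In unconditioned medium the order was Gbp4 at 21.9% ± 0.21, Gbp2 at 19.5% ± 1.1, Gbp7 at 16.6% ± 1.3 and Gbp9 at 15.5% ± 0.23, and the ranges of Gbp7 and Gbp9 overlapped. The makeup of the family thus differed with the medium. Gbp9 held 13.8% ± 4.4 in adipocyte medium and 5.36% ± 0.55 in stromal medium. Gbp11 held 1.15% ± 0.12 in adipocyte medium, 2.97% ± 0.75 in stromal medium and 0.585% ± 0.014 in unconditioned medium, and was the lowest member in adipocyte and unconditioned medium. With the length of all merged exons in place of the coding transcript, Gbp2 led Gbp4 in unconditioned medium too, at 27.5% against 18.7%.

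The first question the design asks of these genes is what adipocyte medium did to them relative to unconditioned medium. Gbp6, Gbp10 and Gbp11, neighbours on chromosome 5, rose by 2.2 to 2.5-fold, and the other 7 members were not past the threshold. Of the 10 members 3 were called higher (limma-trend, Benjamini-Hochberg adjusted p under 0.05) and 0 lower, where 33.8% of all tested genes were called higher and 97.2% in either direction. The members' median log2 fold change was 0.37, against -1.03 over all 2868 genes. The table behind that background mostly holds genes that the authors called changed in adipocyte medium, 2641 of 2889. Of the 169 tested genes that the authors' stromal table holds and that were higher in stromal medium, 113 were higher, 16 lower and 40 not called in adipocyte medium, with a median of 0.84.

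Gbp11, the member annotated as a polymorphic pseudogene, had 614, 667 and 269 normalized counts in adipocyte medium and 206, 194 and 172 in unconditioned medium, for mice 1, 2 and 3. Its log2 fold change was 1.33 (SE 0.27, limma adjusted p = 3.42e-04). Gbp10 had 966, 1218 and 653 normalized counts in adipocyte medium and 428, 449 and 350.1 in unconditioned medium (log2 fold change 1.17, SE 0.24, limma adjusted p = 4.87e-04). For Gbp6, a member that in mouse cells gathers on Toxoplasma vacuoles, the values were 4595, 5785 and 2577 in adipocyte medium and 2217, 1705 and 1557 in unconditioned medium (log2 fold change 1.18, SE 0.30, limma adjusted p = 0.00206). In these 3 genes the groups did not overlap, and all 3 mice were higher in adipocyte medium. Since Gbp6 and Gbp10 share many of their 50-base words with each other, they are not independent cases.

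None of the 4 chromosome 3 members was called. Gbp2, which acts on vacuoles of Toxoplasma and on cytosolic bacteria, had 11136, 13495 and 4343 normalized counts in adipocyte medium and 6924, 5869 and 5057 in unconditioned medium (log2 fold change 0.56, SE 0.38, 95% interval -0.28 to 1.39, limma adjusted p = 0.176). Gbp5, which promotes inflammasome assembly, had 2099.8, 2515 and 726 in adipocyte medium and 1389.8, 1251 and 1152 in unconditioned medium (log2 fold change 0.31, SE 0.41, 95% interval -0.58 to 1.20, limma adjusted p = 0.465). In both genes mice 1 and 2 were higher in adipocyte medium and mouse 3 was lower. Gbp7, which helps to assemble the phagocyte oxidase, had 5739.8, 7668 and 2859.7 in adipocyte medium and 5095, 4912 and 4917 in unconditioned medium (log2 fold change 0.01, 95% interval -0.60 to 0.62, limma adjusted p = 0.970). Gbp3 had 3010.1, 3708 and 1422 in adipocyte medium and 2528, 2449 and 2041 in unconditioned medium (log2 fold change 0.11, 95% interval -0.53 to 0.74, limma adjusted p = 0.719). The same split between mice is present in Gbp3 and Gbp7, and the intervals of these 4 genes leave room for a change in either direction.

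The other 3 members of chromosome 5 were not called either. Gbp4 had 17929.8, 22386 and 10202 normalized counts in adipocyte medium and 13276, 11974 and 10748 in unconditioned medium (log2 fold change 0.42, 95% interval -0.14 to 0.98, limma adjusted p = 0.129). Gbp9 had 9527, 9834 and 7973 in adipocyte medium and 9229.8, 8057 and 7409 in unconditioned medium (log2 fold change 0.15, 95% interval -0.21 to 0.50, limma adjusted p = 0.389). Gbp8 was the only member with a negative value: 2189, 2372 and 1706 in adipocyte medium and 2591, 2489 and 2468 in unconditioned medium (log2 fold change -0.28, 95% interval -0.69 to 0.12, limma adjusted p = 0.160). Its 3 adipocyte samples lay below its 3 unconditioned samples. Groups without overlap, in either direction, were found in 4 of 10 members and in 97% of all tested genes.

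**Figure D2:**
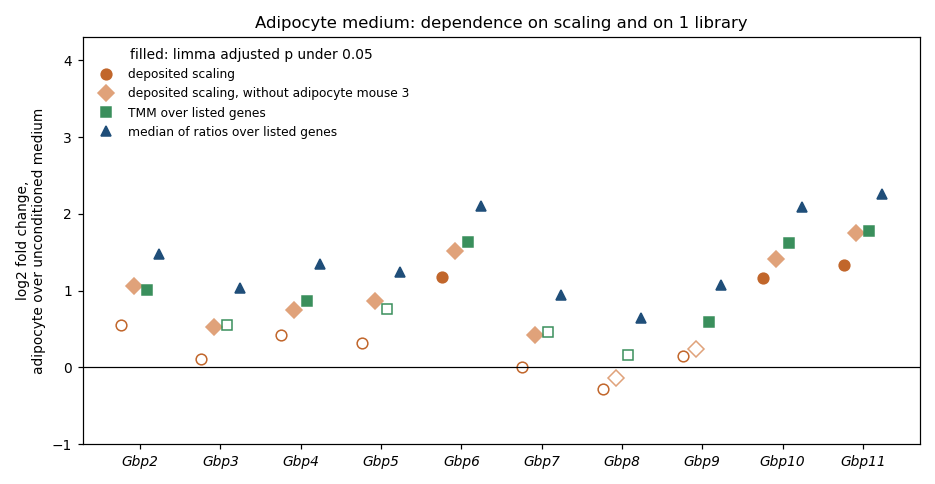
Log2 fold change of each member in adipocyte over unconditioned medium under the deposited scaling (circles), the deposited scaling without the adipocyte sample of mouse 3 (diamonds), TMM (squares) and the median of ratios (triangles), the last pair computed over the listed genes. Filled symbols have a limma adjusted p under 0.05. Filled symbols number 3 for the circles, 8 for the diamonds, 6 for the squares and 10 for the triangles.

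That count depends on 1 library and on the scaling. Without the adipocyte sample of mouse 3, 8 members were called higher, all but Gbp8 and Gbp9, with a median log2 fold change of 0.81; without mouse 3 in every medium 6 were. Under the median of ratios over the listed genes all 10 were higher with a median of 1.29, and Gbp8 turned to 0.64 (limma adjusted p = 0.00717). TMM called 6 higher, with Gbp8 at 0.17. Both scalings take most genes as unchanged, whereas 97.2% of the tested genes were called in this comparison as deposited. They move every gene, putting the median of all tested genes at -0.11 and -0.59 in place of -1.03. A factor per sample shifts all genes alike, so the members' median stood 1.40 above that of all genes in each case by construction. All-gene calls were 969 higher and 1818 lower as deposited, 1078 and 1047 under the median of ratios, and 1011 and 1748 under TMM.

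Set against stromal medium, the members' values in adipocyte medium were lower, with log2 fold changes of -3.51 to -0.85. The median of the members was -2.09, beside -0.60 over all genes. In all 10 the 3 adipocyte samples lay below the 3 stromal samples, as they did in 56.2% of all tested genes. The members were chosen for being high in these stromal samples, so the direction was largely fixed by the choice, and no p-value is given for it.

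The size of the gap ranged widely among members. Gbp11 had 614, 667 and 269 normalized counts in adipocyte medium and 6182, 4956 and 5309 in stromal medium (log2 fold change -3.51, SE 0.27). Gbp5 followed at -2.94 (SE 0.41) and Gbp2 at -2.80 (SE 0.38). Gbp6, Gbp3, Gbp8, Gbp7, Gbp10 and Gbp4 lay between -2.12 and -1.80. Gbp9 had the smallest gap, with 9527, 9834 and 7973 in adipocyte medium and 21663, 12795 and 15685 in stromal medium (log2 fold change -0.85, SE 0.16). Under the median of ratios Gbp9 was at -0.28.

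**Figure D3:**
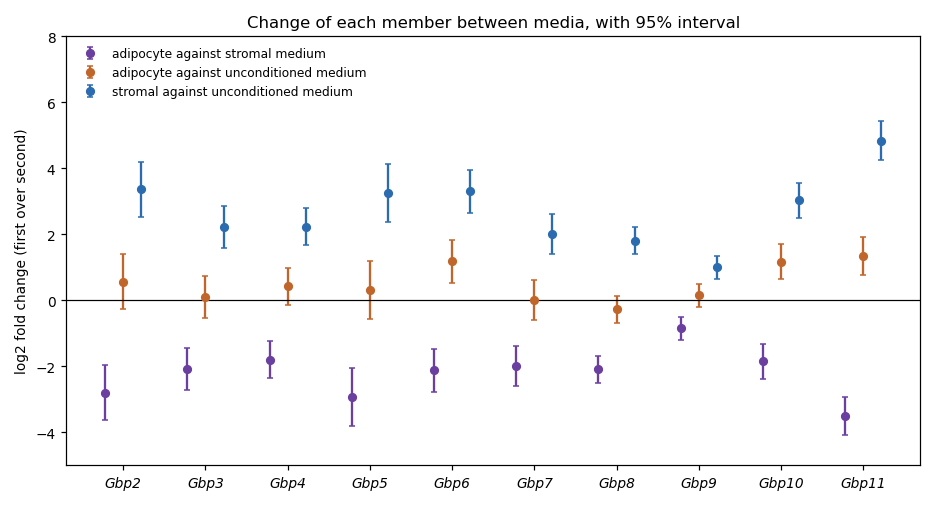
Log2 fold change of each member between media, first over second, with 95% intervals from the limma fit, for adipocyte against stromal, adipocyte against unconditioned and stromal against unconditioned medium. The adipocyte against stromal values run from -3.51 for Gbp11 to -0.85 for Gbp9, and the stromal against unconditioned values, which chose the members, from 0.99 for Gbp9 to 4.84 for Gbp11.

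In stromal against unconditioned medium, the comparison that chose the members, values are a description only. Gbp11 had 6182, 4956 and 5309 normalized counts in stromal medium and 206, 194 and 172 in unconditioned medium, and its log2 fold change of 4.84 was the highest of all 2868 tested genes. That rank holds only for the genes of the sample table. In the authors' deposited stromal table its log2 fold change of 4.86 ranked 44 by fold. Next among the members came Gbp2, with 100207, 39308 and 56331 in stromal medium and 6924, 5869 and 5057 in unconditioned medium (3.36, SE 0.38). Gbp6 was at 3.30 (SE 0.30), with 26759, 11923 and 17682 in stromal medium and 2217, 1705 and 1557 in unconditioned medium. These 3 genes differ in position, since Gbp2 lies on chromosome 3 and the others on chromosome 5.

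Gbp5 had 19409, 7235 and 12265 normalized counts in stromal medium and 1389.8, 1251 and 1152 in unconditioned medium (log2 fold change 3.25, SE 0.41). Gbp10 had 4781, 2456 and 3123 in stromal medium and 428, 449 and 350.1 in unconditioned medium (3.03, SE 0.24). A middle group was formed by Gbp4 at 2.23, Gbp3 at 2.21, Gbp7 at 2.01 and Gbp8 at 1.81. Gbp4 was the member with the highest unconditioned level per kilobase, and its stromal values were 74170.5, 41037 and 57386 against 13276, 11974 and 10748 in unconditioned medium. Gbp8 had 12305, 6500.2 and 8546 in stromal medium and 2591, 2489 and 2468 in unconditioned medium.

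Gbp9 stood at the low end, at 0.99 (SE 0.16), and was also the member nearest the authors' threshold: the authors' deposited table gives it a log2 fold change of 1.01 with an adjusted p of 0.0187. A member just outside that threshold cannot be given, because the tables used here hold only genes inside it. The median log2 fold change of the members was 2.63, beside -0.17 over all genes. The 3 stromal samples lay above the 3 unconditioned samples in all 10, beside 25.1% of all tested genes, a count that the choice of members largely fixed.

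Mice differed in step across the family. In adipocyte medium mouse 3 was the lowest and mouse 2 the highest sample in 10 of 10 members, while over all 2868 tested genes mouse 3 was the lowest in 34.9% and mouse 2 the highest in 37.0%. In stromal medium mouse 1 was the highest and mouse 2 the lowest in 10 of 10 members, beside 38.7% and 46.9% of all tested genes. In unconditioned medium mouse 1 was the highest in 9 of 10, beside 32.3%. The order of mice in one conditioned medium was thus not that in the other. The median member was 1.43, 1.94 and 0.904-fold of its unconditioned level in adipocyte samples of mice 1, 2 and 3, and 8.49, 4.45 and 7.13-fold in stromal samples. The coefficient of variation of a member had a median of 39.7% in adipocyte medium, 31.0% in stromal medium and 10.9% in unconditioned medium. Deviations from the medium's mean correlated between members with r from 0.595 to 0.990 (median 0.932 over 45 pairs; the pairs share the same 9 libraries). The summed B cell markers had the same order of mice in stromal medium, 2665, 1488 and 2247.5 normalized counts in mice 1, 2 and 3. In adipocyte medium they were 486, 545 and 496. Their part in the differences between mice was not tested.

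Other interferon-inducible GTPases give a comparison within the same response. Among them, immunity-related GTPases act with the guanylate binding proteins on pathogen vacuoles. Of 18 genes on a list of other interferon-inducible GTPases, 8 are in the sample table. These are the immunity-related Irgm1, Irgm2, Igtp, Iigp1, Tgtp1 and Tgtp2, together with Gvin1 and Gvin2, which are not of that family. All 8 were called higher in adipocyte against unconditioned medium, beside 33.8% of all tested genes, with a median log2 fold change of 1.26. Of the 8 genes, 6 are in the authors' deposited adipocyte table. All 8 were called lower in adipocyte against stromal medium (median -0.77), where 57.2% of all tested genes were called lower and 91% in either direction. That count was 2 under the median of ratios (median -0.20). The 8 genes are also in the authors' stromal table, so the direction is not independent of that selection. Tgtp1 and Tgtp2, and Gvin1 and Gvin2, are near-identical pairs whose reads the counting could split. Igtp, the member of the list that guards against Toxoplasma by regulating effector GTPases, had 40226, 44318 and 23318 normalized counts in adipocyte medium, 98287, 68495 and 82539 in stromal medium and 15152, 15067 and 12609 in unconditioned medium. Its adipocyte samples lay between the other groups, a place taken without overlap by 3 of the 10 guanylate binding protein genes. In adipocyte and stromal medium these 8 genes had the same highest and lowest mouse as the family, in 8 of 8.

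A difference within a sample does not depend on the scaling of libraries. The mean log2 level of the 10 members less that of the 8 other GTPases was -2.16, -2.02 and -2.29 in adipocyte samples of mice 1, 2 and 3. It was -0.58, -0.94 and -0.82 in stromal samples and -1.28, -1.36 and -1.26 in unconditioned samples. The 3 media did not overlap: relative to the other GTPases, the family was lowest in adipocyte medium, 0.85 log2 units below unconditioned medium, and highest in stromal medium, 0.52 above it. Relative to Irf1 the order was the same, with means of -3.92, -1.51 and -2.94 in adipocyte, stromal and unconditioned medium. No test was made on these differences, since stromal values chose the members.

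**Figure D4:**
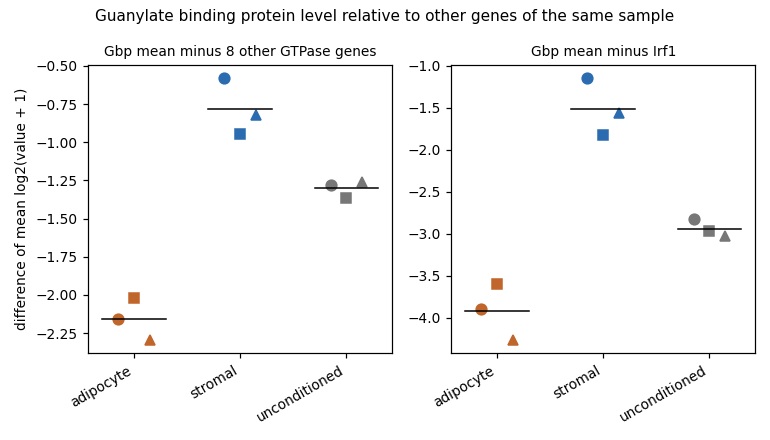
Mean log2(value + 1) of the 10 guanylate binding protein genes less the mean of 8 other interferon-inducible GTPase genes (left) and less Irf1 (right), in each sample by medium. Lines are means of 3 samples and symbols give the mouse. In both panels the adipocyte samples are the lowest and the stromal samples the highest, with means of -3.92, -1.51 and -2.94 in adipocyte, stromal and unconditioned medium on the right.

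Ratios between members were compared for 5 pairs, and the 2 pairs with Gbp11 on top differed most between media. The ratio of Gbp6 to Gbp10 counts was 3.95 to 4.75 with adipocyte, 4.85 to 5.66 with stromal and 3.80 to 5.17 with unconditioned medium, ranges that overlap between unconditioned medium and both others but not between adipocyte and stromal medium. The ratio of Gbp11 to Gbp8 counts was 0.158 to 0.281 with adipocyte, 0.502 to 0.762 with stromal and 0.070 to 0.079 with unconditioned medium, with no overlap between media. Gbp11 and Gbp8 are 93.8% identical over their coding bases. The ratio of Gbp11 to Gbp4 did not overlap between media either, at 0.026 to 0.034 with adipocyte, 0.083 to 0.121 with stromal and 0.015 to 0.016 with unconditioned medium. Gbp2 to Gbp5 was 5.30 to 5.98, 4.59 to 5.43 and 4.39 to 4.98 in the same order, without overlap between adipocyte and unconditioned medium. Gbp3 to Gbp7 was 0.484 to 0.524, 0.521 to 0.558 and 0.415 to 0.499, without overlap between stromal and unconditioned medium only.

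The ligand and receptor genes upstream of the family were ordered differently from it. Ifng, the gene of interferon gamma itself, was highest in adipocyte medium: it had 2120, 1609 and 1698 normalized counts there, 321, 381 and 360.4 in stromal medium and 97.1, 132 and 119 in unconditioned medium. The log2 fold change in adipocyte against stromal medium was 2.34 (SE 0.16), opposite in sign to all 10 members. Ifng is in both of the authors' tables, so its own values helped to list it and no p-value is given. The sign of the members was largely fixed by their choice on stromal values. Ifngr2, a chain of the receptor, was also higher in adipocyte than in stromal medium, by 1.21. It is in the authors' adipocyte table, so no p-value is given for that direction.

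Socs1, which encodes a feedback inhibitor of JAK kinases, had the same order as the family: its log2 fold change was 0.16 in adipocyte against unconditioned medium (limma adjusted p = 0.167) and -1.81 in adipocyte against stromal medium. It had 2835, 2517 and 2103 normalized counts in adipocyte medium, 8779.9, 8871 and 8382 in stromal medium and 1982, 2258 and 2400.5 in unconditioned medium. Stat2 was at 0.18 and -1.12 in the same comparisons. Socs1 and Stat2 are, like the members, in the authors' stromal table and not in their adipocyte table. Their direction against stromal medium was thus largely fixed by that selection, and no p-value is given for it.

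Of the IRF genes, Irf8 and Irf9 were highest in stromal medium at the deposited scaling, and Irf1 was not. Irf1, which drives Gbp transcription, had 54176, 52652 and 37505 normalized counts in adipocyte medium, 44975, 37867 and 41539.5 in stromal medium and 17375, 17512 and 16388 in unconditioned medium. It was higher in adipocyte against unconditioned medium by 1.47. It differed from stromal medium by 0.20 (SE 0.13), and the adipocyte and stromal samples overlapped. Irf8 was at 1.00 and Irf9 at 0.46 against unconditioned medium, and at -0.36 and -0.39 against stromal medium. Irf1 and Irf8 are in both of the authors' tables and Irf9 in their stromal table, so these values are a description and carry no p-value here. Under the median of ratios the second pair turned to 0.21 and 0.18, and Irf1 was at 0.77 against stromal medium. Ifngr1, Jak1, Jak2, Casp1 and Aim2 are not among the listed genes and were not analysed here.

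**Figure D5:**
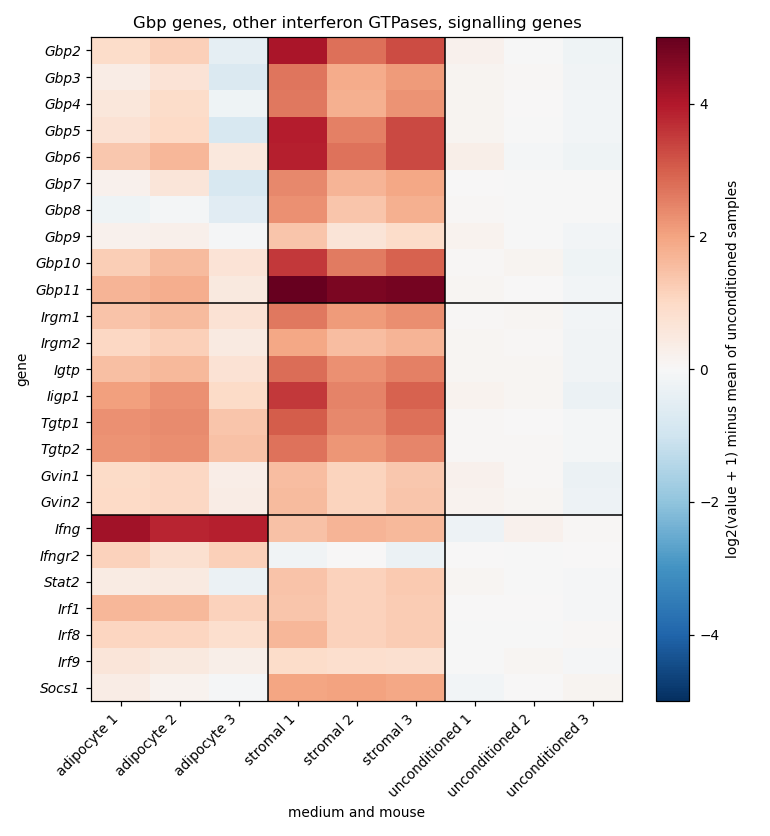
Log2(value + 1) of each sample less the mean of the unconditioned samples, for the 10 guanylate binding protein genes (top), the 8 other interferon-inducible GTPase genes (middle) and 7 signalling genes (bottom), with samples in columns by medium and mouse. Ifng is at its highest in the adipocyte columns, whereas Socs1 and the 10 members at the top are at their highest in the stromal columns.

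Fixed lists give the counts around these examples. Beside them, 33.8% of all tested genes were called higher and 63.4% lower in adipocyte against unconditioned medium. Of 21 interferon gamma signalling genes 11 are in the table. In adipocyte against unconditioned medium 7 were higher, 1 was lower and 3 were not called, with a median log2 fold change of 0.59, and in stromal against unconditioned medium 9 were higher and 2 not called, with a median of 1.30, where 21.1% of all tested genes were called higher. The 1 lower gene was Ciita, the master regulator of MHC class II, at -2.61, with 17.3, 42.3 and 9.77 normalized counts in adipocyte medium against 123, 126 and 123 in unconditioned medium. Of that list 6 genes are in the authors' adipocyte table and 8 in their stromal table, so these counts repeat that selection. Under the median of ratios 10 were higher and 1 lower in adipocyte medium.

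Other interferon gamma targets, 9 of 33 in the table, were higher in 5 cases, lower in 2 and not called in 2 in adipocyte against unconditioned medium (median log2 fold change 0.88). Under the median of ratios 8 were higher and 1 lower there, with a median of 1.81. In stromal against unconditioned medium 8 were higher and 1 lower. Zbp1, a sensor of Z-form nucleic acid, was at -1.52 in adipocyte against stromal medium, and Cxcl9, a chemokine gene with 4.31 to 13.5 normalized counts in adipocyte medium and 35.9 to 139 in stromal medium, was at -3.02. H2-Q4, an MHC class I gene, was at 0.40. Type I interferon genes, 11 of 38, were higher in 4 cases and lower in 7 in adipocyte against unconditioned medium, and 4 and 3 under the median of ratios. The first split is near that of all tested genes, 33.8% called higher and 63.4% lower, so it is not read as a result about these genes. In stromal against unconditioned medium 7 were higher and 4 lower, beside 21.1% and 36.6% of all tested genes. Against stromal medium Slfn1, Ifi208 and Ifit3b were at -2.19, -1.61 and -3.13 in adipocyte medium.

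Genes that act with guanylate binding proteins in inflammasome and vacuole attack, 6 of 21 in the table, were called higher in 5 cases and lower in 1 in adipocyte against unconditioned medium, and all 6 are in the authors' adipocyte table. Casp4, which encodes the murine caspase-11, had 954, 588 and 645 normalized counts in adipocyte medium, 271, 235 and 248 in stromal medium and 354, 295 and 252 in unconditioned medium. Its adipocyte samples lay above both other groups, the opposite of the family's order against stromal medium. Pycard, encoding the adaptor ASC, was at -1.51 in that comparison, Gabarapl1, an ATG8 family gene of autophagy, at 1.00 and the kinase gene Pim1 at 0.54. In stromal against unconditioned medium 3 of the 6 were higher, 1 was lower and 2 were not called. NF-kB target genes, 7 of 16 in the table, were all higher in adipocyte against unconditioned and against stromal medium. In each of these comparisons 33.8% of all tested genes were called higher. All 7 are in the authors' adipocyte table, so both counts were largely fixed by that selection. Tnfaip3, Rel and Relb were at 1.97, 1.40 and 0.84 in adipocyte against stromal medium. In stromal against unconditioned medium 3 of the 7 were higher, beside 21.1% of all tested genes.

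The genes whose levels ran most like the family's were found by Pearson r with the mean centred log2 value of the members over the 9 samples, among 2491 genes with a mean of at least 100 normalized counts. Those near the top were Ppa1 (0.994), Wasf1 (0.993), Stat2 (0.991), Cks1b (0.987), Nt5dc2 (0.987), Ncoa7 (0.987) and Parp9 (0.982). The points share libraries and fall into the stromal samples and the rest, so r mainly records the gap between these. These 7 are in the authors' stromal table and 0 in their adipocyte table. Ppa1, encoding a cytosolic pyrophosphatase, had 1783, 1849.5 and 1293 normalized counts in adipocyte medium, 3885, 2862 and 3172 in stromal medium and 1269.8, 1360.3 and 1374 in unconditioned medium. Wasf1, an actin regulator gene, had 50.3, 67.5 and 18.6 in adipocyte medium, 347, 212 and 279 in stromal medium and 32.9, 20.9 and 21.3 in unconditioned medium. In both the adipocyte sample of mouse 3 was the lowest and the stromal sample of mouse 1 the highest of its medium, as in the members. Among the members r with the family mean ran from 0.951 for Gbp8 to 0.999 for Gbp2.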

How the data were processed

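RNA of 9 samples of splenic T cells was sequenced from SMART-seq v4 cDNA and Nextera XT libraries on a NovaSeq, per the labels' protocols. FastQC, Trimmomatic, featureCounts and DESeq2 were used, per the submitters' processing notes, which list GRCm39 together with GRCh38 and hg38 and give a role to none of these builds. Aligner, annotation and strand setting were not given in the sources used here. Values of the deposited sample table are a signal per gene, read counts divided by 1 size factor per sample: divided by the smallest step of their sample, 100% of its values came out whole within 0.001, and the reads were recovered in this way. The authors' deposited tables, per the file headers, give a mean signal, a log2 fold change, a Wald score and p-values. The table lists only genes from these tables (2889 of 3495), so every count is over genes already called changed.

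Values were tested as log2(value + 1) by limma-trend, using limma 3.58.1 and R 4.3.3. Genes needed a mean of 1 or more, and all 9 samples entered 1 fit with the medium as the only factor. The p-values were two-sided, adjusted by Benjamini-Hochberg over 2868 genes, with a threshold of 0.05. They measure the spread over 3 mice. A count model planned for raw counts was replaced by limma because values were normalized. On the recovered counts edgeR 4.0.16 and DESeq2 1.42.0 were alternatives, each calling 3 members in adipocyte against unconditioned medium. The script was tested on simulated data. Samples with the same number come from the same mouse, per the labels, and the correlation of their deviations ran from -0.12 to 0.26 over 9 pairs; the mouse was a block in an alternative.

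The members and lists were chosen with earlier results of these data known. Genes were named by rule: all members, a fixed set of signalling genes and GTPases, up to 3 further genes per list by adjusted p in adipocyte against stromal medium, and the 8 most alike. One gene that these rules name is withheld and not reported here; list counts and medians keep it. Marker lists are given by sums. Of red cell markers 1 of 11 (Car1) is listed, at 74.8 to 146 normalized counts in adipocyte, 539 to 1776 in stromal and 259 to 430 in unconditioned medium. Of adipocyte and stromal markers 1 of 19 (Lpl) is, at 0 to 12.7, 156 to 193 and 28.6 to 105. Coordinates and coding sequences are from GENCODE M21 (GRCm38) and promoters from RefSeq (GRCm38.p6), which differ from the submitters' mouse build, so they were used for position and sequence only.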

Additional observations from a re-analysis of the deposited data

How the results depend on the processing

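Each value was recomputed under 23 alternatives. Only adipocyte against unconditioned medium bears on stability, since the choice of members rests on the stromal samples of the other 2 comparisons. Its unconditioned samples were part of that choice too. The number of members called in adipocyte against unconditioned medium was 10 under the median of ratios and 6 under TMM, against 3 as deposited, and ranged from 3 to 8 when samples or mice were left out. Those scalings shift all genes alike, so the members' distance to the median gene was fixed by construction and says nothing on stability. They were computed over listed genes that the authors had already called changed. With only the 6 samples of that comparison 4 were called, the fourth being Gbp8, lower. In the same comparison the sign of Gbp8 turned to 0.64 under the median of ratios and 0.17 under TMM. Leaving samples out turned Gbp3, Gbp5 and Gbp7, none of them called where negative: their values over these settings ran from -0.17 to 0.52, from -0.04 to 0.87 and from -0.30 to 0.42. Without the adipocyte sample of mouse 2, Gbp5 was at -0.030, and without mouse 2 in every medium Gbp3 and Gbp5 were at -0.14 and -0.035. Without mouse 1 in every medium Gbp7 was at -0.070. With the mouse as a replicate block the count was 3, and the pairing changed no member's call. The cause of these shifts was not tested beyond what each alternative does by construction. Each member had at least 144 recovered reads in every sample, and values of Gbp6 and Gbp10 remain tied to shared sequence.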
